A study of Pyronema omphalodes CBS 100304 with 9 samples.

Results

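Protoapothecia of the soil ascomycete Pyronema omphalodes CBS 100304 (also called Pyronema confluens), the young stage of its fruiting bodies, were compared with vegetative mycelium of the same fungus grown in constant darkness. The comparison took every gene model with at least 10 counts in 2 or more of the 5 libraries concerned, which left 11095 of the 13369 genes of the deposited table. The 3 protoapothecia libraries, A, B and C, are independent biological replicates, each of protoapothecia cut out with a laser from cultures that had grown for 4 d at 25 °C on slides with 150 µl of WPC medium and 0.8% agar. These cultures were fixed in cold ethanol, their RNA was amplified linearly, and the light they grew in is not given in the sources used here. The 2 dark mycelium libraries, 1 and 2, came from an earlier study and hold bulk RNA of whole surface cultures in WPC medium in constant darkness, pooled from days 3, 4 and 5. Per the labels, each mycelium library is part of a pair of technical replicates. Separate cultures for mycelium 1 and 2 are not stated, so the p-values may rest in part on technical spread. Stage, culture, dissection, fixation and amplification all differ between the 2 groups and cannot be told apart. Light may differ as well, since constant darkness is stated for the mycelium alone, and it cannot be told apart from these either. Another 2 libraries each of sexual mycelium (surface culture in constant light) and of a vegetative pool entered the same statistical fit.

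Pyronema is self-fertile, and in light its hyphae form clusters of female ascogonia and male antheridia that fuse and become wrapped in sterile hyphae, giving a protoapothecium. Ascogenous hyphae inside it later form the asci, in which nuclei fuse and meiosis takes place, and the mature apothecium is coloured orange by carotenoids. In constant darkness this fungus grows as vegetative mycelium and forms no fruiting bodies. Genes are named by the product descriptions in the deposited table, which were given by resemblance to proteins known elsewhere and are no proof of function in Pyronema.

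The libraries held 24494613, 5583951 and 24803660 counts in protoapothecia A, B and C, against 14265890 and 14835205 counts in dark mycelium 1 and 2. Levels are given in CPM, counts scaled to a common library size after TMM normalization. Values of single libraries are listed in the order A, B and C for protoapothecia and 1 and 2 for dark mycelium. Other values are means, where given with ± SD, over the 3 protoapothecia and the 2 dark mycelium libraries. A level of 3 counts, the floor used here for a gene at 0, equals 0.645 CPM in protoapothecia B, 0.147 and 0.146 CPM in protoapothecia A and C, and 0.202 and 0.193 CPM in dark mycelium 1 and 2. Across genes, log2(CPM + 1) correlated at 0.940 to 0.960 among the protoapothecia libraries and at 0.992 between the dark mycelium libraries, against 0.546 to 0.606 between the groups.

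Most genes differed between protoapothecia and dark mycelium: 4217 rose (38.0% of the genes tested) and 3814 fell (34.4%), together 72.4%, at an adjusted p below 0.05 in edgeR's quasi-likelihood test. With so high a share called, a count of called members in a gene group is read here against 38.0% and 34.4%. Those shares include genes with no named product. Such genes were 2631 of the 4217 that rose (62.4%), 1623 of the 3814 that fell (42.6%) and 5772 of the 11095 tested (52.0%). Genes with a named product thus rose less often than 38.0% and fell more often than 34.4%, which limits the reading of groups near these shares. A group just below 38.0% may still exceed named genes in increases, and a group just above 34.4% may fall short of them in decreases. In bulk RNA, fewer cells of a type and less RNA per cell cannot be told apart, and a CPM level is a share of all RNA in the library. For the size of change, a group with fewer than 3 counts was set at the floor of 3 counts, which touched 731 genes that rose and 88 that fell and gives their changes as lower bounds. Of the genes that rose, 3886 then had a log2 fold change above 1, 1017 above 5 and 95 above 10. Of those that fell, 3419 did so by more than 1 on that scale, 335 by more than 5 and 2 by more than 10. Against a fold change of 2 as the null, 3231 genes (29.1%) rose and 2759 (24.9%) fell. The libraries of the groups did not overlap in 4586 genes (41.3%) that were higher in protoapothecia and in 4409 (39.7%) that were lower. The rule for naming many genes below required libraries that did not overlap, so lack of overlap in them adds no support. The median log2 fold change of all genes tested was 0.14, and it was 0.26 under DESeq2's scaling and 0.06 under upper-quartile scaling, so medians of gene groups are given beside 0.14 and small ones carry no direction.

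The authors' deposited table lists 3694 genes as higher and 2888 as lower in its consensus calls for the same comparison, or 27.6% and 21.6% of its 13369 genes. Of these, 3340 and 2631 passed the count filter used here, 3287 and 2627 were called the same way in the edgeR fit, and 0 were called the opposite way.

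**Figure D1:**
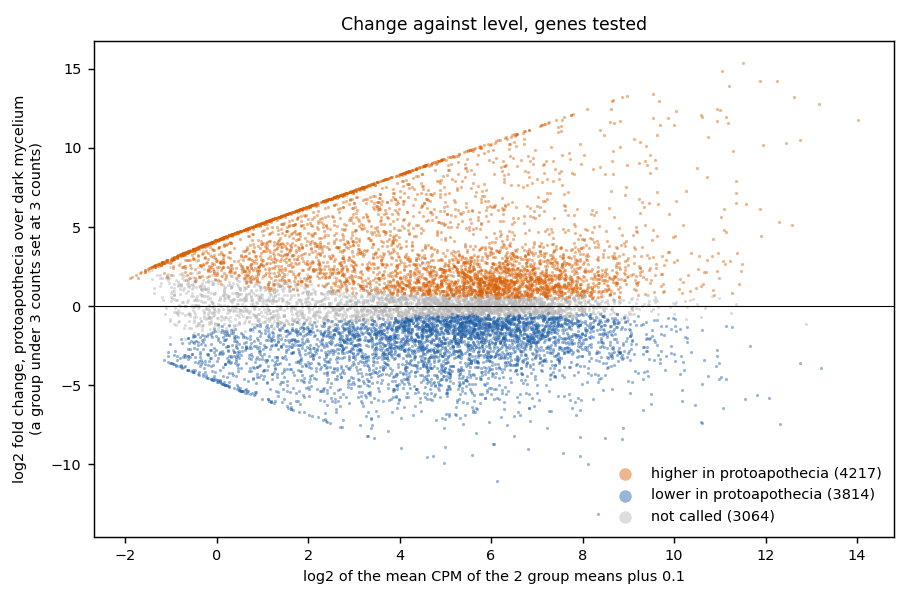
Log2 fold change of protoapothecia over dark mycelium (vertical axis) against mean log2 CPM (horizontal axis) for the 11095 genes tested, 1 point a gene, coloured by whether the gene rose, fell or was not called at an adjusted p below 0.05. A group with fewer than 3 counts is set at 3 counts, and 95 increases and 2 decreases then exceed 10 on the log2 scale.

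The 12 described genes with the largest fitted log2 fold changes had few or no reads in dark mycelium. Over a group at 0 the fitted value is no measured fold, so their order is not one of size. Among them was PCON_04545, described as PRY1, which in Saccharomyces cerevisiae is a secreted sterol-binding protein (scaffold 162, bases 164556 to 165500). It had 256, 489 and 283 CPM in protoapothecia, against 0 and 0 in dark mycelium, at least 3474-fold higher against the floor of 3 counts over the dark group (edgeR adjusted p = 2.39e-06). A gene with 0 counts in dark mycelium passed the count filter only through protoapothecia, so it had to differ. Its p-value is no further support. PCON_02777, described as cytochrome P450 52A13, a family that hydroxylates alkanes and fatty acids in Candida, had 175, 289 and 336 CPM in protoapothecia, against 0 and 0 in dark mycelium, at least 2703-fold higher (edgeR adjusted p = 1.88e-05). Of the 3 protoapothecia libraries, A was the lowest. PCON_11137, with RCC1 and BTB domains, PCON_09947, named after the insect chitin-binding protein peritrophin-1, PCON_08215, an ankyrin repeat protein, and PCON_05505, named after the yeast copper importer CTR1, also had 0 counts in dark mycelium and were at least 2296-, 467-, 436- and 361-fold higher.

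Other genes had a trace of counts in dark mycelium and were among the abundant transcripts of protoapothecia. Subtilisin-like protease 3, PCON_01303, a secreted serine protease family, had 5778, 4319 and 3980.0 CPM in protoapothecia, against 0.269 and 0.322 in dark mycelium (log2 fold change 13.92, SE 0.45, edgeR adjusted p = 4.65e-07). The benzoate 4-monooxygenase gene PCON_08024, a cytochrome P450 of aromatic acid breakdown in Aspergillus, had 2870.0, 4304 and 4537 CPM in protoapothecia, against 0.202 and 1.16 in dark mycelium (log2 fold change 12.46, SE 0.79, edgeR adjusted p = 2.22e-06). PCON_07851, described as a putative fungistatic metabolite, had 3389, 3574 and 2271 CPM in protoapothecia, against 0.605 and 0.772 in dark mycelium (log2 fold change 12.11, SE 0.52, edgeR adjusted p = 6.80e-07). All 3 were abundant in every protoapothecia library and stood at or below 1.16 CPM in both dark libraries. The remaining members of the 12 were the ankyrin repeat gene PCON_05913, the subtilisin-like protease gene pepC (PCON_07960) and the zinc transporter gene ZRT2 (PCON_09704). Their means were 285 CPM in protoapothecia against 0.0658 in dark mycelium for PCON_05913, 275 CPM in protoapothecia against 0.0672 in dark mycelium for PCON_07960 and 375 CPM in protoapothecia against 0.0993 in dark mycelium for PCON_09704, with 2, 2 and 3 reads in the dark group, so no fold is given. In PCON_05913 and PCON_07960, protoapothecia B was well below A and C, at 65.98 and 87.9 CPM.

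Per kilobase of gene model, the most abundant described transcript of protoapothecia was PCON_04233, a fucose-specific lectin, with 11295 CPM per kb in protoapothecia against 7.81 in dark mycelium. It had 14573, 16736 and 9827 CPM in protoapothecia, against 7.46 and 11.5 in dark mycelium (log2 fold change 10.50, SE 0.51, edgeR adjusted p = 9.21e-07). L-tyrosine decarboxylase, PCON_12394 (scaffold 678, bases 240919 to 245341), which forms tyramine from tyrosine, took the largest share of counts of these genes, with 36756, 36005 and 26939.7 CPM in protoapothecia, against 6.11 and 12.7 in dark mycelium (log2 fold change 11.79, SE 0.58, edgeR adjusted p = 9.40e-07). Per kilobase it reached 7899.6 CPM in protoapothecia against 2.23 in dark mycelium. A second lectin gene, PCON_12683, had 4602 ± 2098 CPM in protoapothecia and 1.47 ± 0.466 CPM in dark mycelium, or 7557 against 2.42 CPM per kb. The proline permease gene put4, PCON_08572, had 16082, 7504 and 12091 CPM in protoapothecia, against 388 and 291 in dark mycelium (log2 fold change 5.13, SE 0.44, edgeR adjusted p = 9.09e-06). PCON_05009, named after PN-AMP1, a chitin-binding antimicrobial peptide of morning glory, had 2766, 9677 and 3219.7 CPM in protoapothecia, against 31.4 and 43.2 in dark mycelium. Protoapothecia B was the highest library in PCON_05009 and the lowest in PCON_08572, and the groups overlapped in neither. Leucine aminopeptidase 2, PCON_11583, a secreted exopeptidase, had 9769.9 ± 3761 CPM in protoapothecia and 241 ± 53.5 CPM in dark mycelium (log2 fold change 5.34, SE 0.43, edgeR adjusted p = 7.14e-06). All 6 of these genes rose by more than 5 on the log2 scale.

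The 12 lowest fitted log2 fold changes among described genes took abundant or moderate transcripts of dark mycelium to nearly no reads. Conidiation-specific protein 6, PCON_11571 (scaffold 615, bases 1674 to 2435), whose namesake Con-6 accumulates in conidia of Neurospora crassa, had 0, 0 and 0.146 CPM in protoapothecia, against 551 and 749 in dark mycelium (edgeR adjusted p = 7.71e-07). Only 3 reads were counted over the 3 protoapothecia libraries against 19847 in dark mycelium. PCON_12027, described as a 4-hydroxy-2-oxoglutarate aldolase of hydroxyproline breakdown, had 0.0491, 0 and 0 CPM in protoapothecia, against 50.9 and 45.5 in dark mycelium. Carbonic anhydrase, PCON_05302, had 0.0491, 0.215 and 0 CPM in protoapothecia, against 33.5 and 31.3 in dark mycelium. Their edgeR adjusted p were 2.69e-06 and 3.36e-06, on 1 and 2 protoapothecia reads. The formin-binding protein 4 gene PCON_02356 and the gene PCON_08972, named after the rds1 gene of Schizosaccharomyces pombe, likewise had 3 and 2 protoapothecia reads, with means of 0.104 CPM in protoapothecia against 53.03 in dark mycelium and 0.0878 CPM in protoapothecia against 19.4 in dark mycelium. The ankyrin gene PCON_09184 had 0 reads in protoapothecia and 10.4 CPM in dark mycelium, at least 158-fold lower. It passed the count filter only through dark mycelium, so it had to differ.

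Glycogenin-2, PCON_04451, which primes glycogen chains, fell to 0.442, 0.215 and 0.486 CPM in protoapothecia, against 259 and 186 in dark mycelium (log2 fold change -8.997, SE 0.47, edgeR adjusted p = 1.12e-06). The mannitol dehydrogenase gene PCON_02415 had 0.245, 1.93 and 2.82 CPM in protoapothecia, against 601 and 386 in dark mycelium (log2 fold change -8.25, SE 0.79, edgeR adjusted p = 1.81e-05). PCON_13506, a subtilisin-like protease, had 1.08, 4.73 and 3.30 CPM in protoapothecia, against 1012 and 855 in dark mycelium (log2 fold change -8.39, SE 0.55, edgeR adjusted p = 2.55e-06). In all of these genes the lowest dark library exceeded the highest protoapothecia library by a wide margin, though the rule for naming excluded overlap. The gene named after xlnR, the transcriptional activator of xylanase genes in Aspergillus, PCON_11388, had 4.17, 3.87 and 5.58 CPM in protoapothecia, against 831 and 1052 in dark mycelium (log2 fold change -7.67, SE 0.28, edgeR adjusted p = 5.85e-07). The incompatibility gene HET-E-1 PCON_05422 and the ankyrin repeat gene PCON_14267 completed the 12, with 0.0651 CPM in protoapothecia against 17.3 in dark mycelium and 0.0816 CPM in protoapothecia against 20.9 in dark mycelium.

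**Figure D2:**
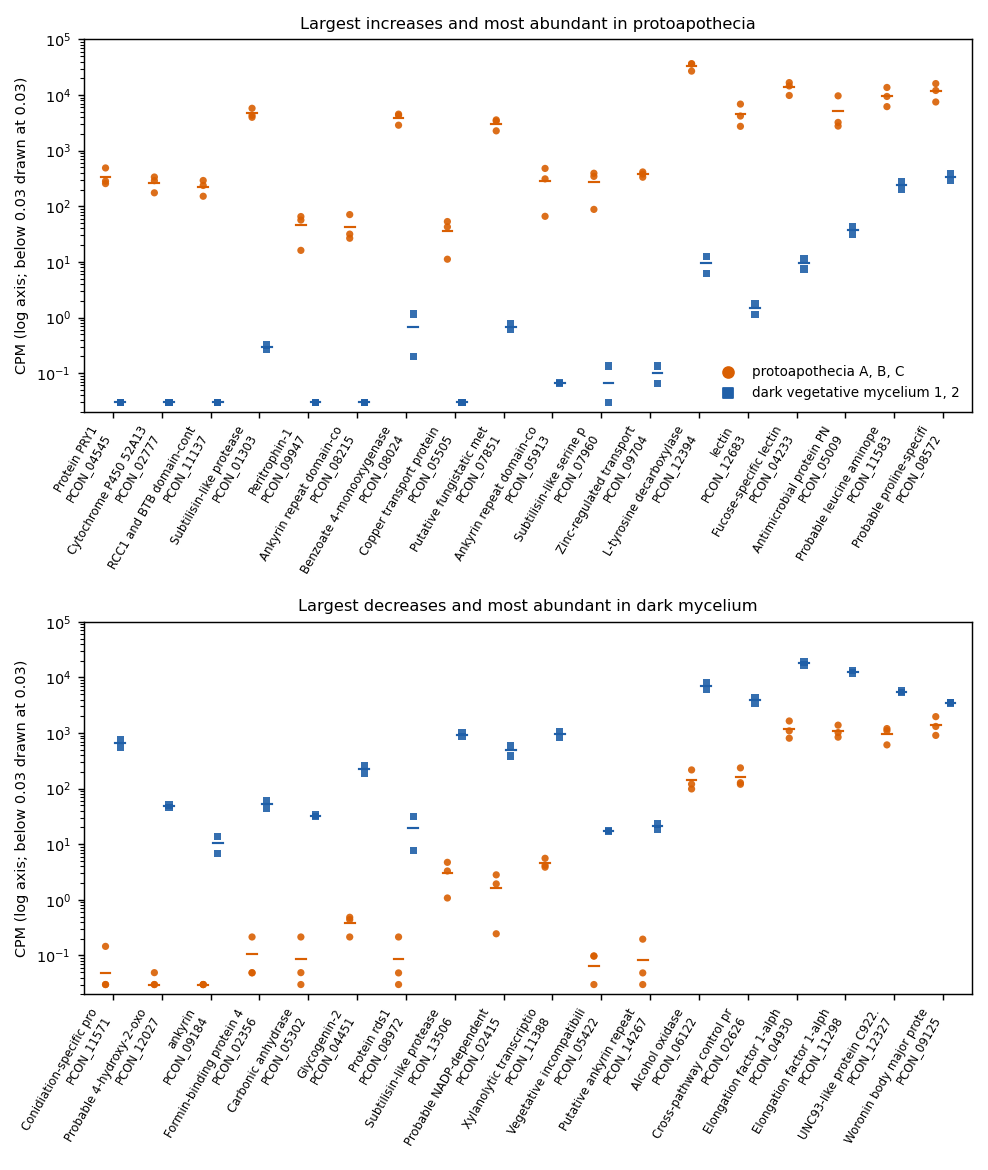
CPM in each library on a log axis, with values below 0.03, including 0, drawn at 0.03. The top panel holds the 12 described genes with the highest fitted log2 fold changes and the 6 most abundant per kilobase in protoapothecia. The bottom panel holds the 12 with the lowest and the 6 most abundant per kilobase in dark mycelium. The 3 protoapothecia libraries are drawn left of the 2 dark mycelium libraries. In every gene the groups stand apart, as in PRY1, with 0 reads in dark mycelium, and Con-6, with 3 reads in protoapothecia. The choice of the 12 genes in each panel required this.

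In dark mycelium the most abundant described transcripts per kilobase were those of elongation factor 1-alpha, which carries aminoacyl-tRNA to the ribosome. PCON_04930 had 1092, 1645 and 806 CPM in protoapothecia, against 18908 and 16664 in dark mycelium. PCON_11298 had 1017, 1384 and 842 CPM in protoapothecia, against 13468 and 12025 in dark mycelium. Genes with the same description may share reads, so how these were divided is not known, and both fell (-3.91 and -3.56 on the log2 scale, edgeR adjusted p = 1.01e-05 and 6.54e-06). The gene of cross-pathway control protein A, PCON_02626, which in Aspergillus switches on amino acid synthesis under starvation, had 128, 236 and 119.6 CPM in protoapothecia, against 3456 and 4353 in dark mycelium (log2 fold change -4.60, SE 0.37, edgeR adjusted p = 6.96e-06). Alcohol oxidase, PCON_06122, had 98.7, 120.3 and 217 CPM in protoapothecia, against 7995 and 6201 in dark mycelium (log2 fold change -5.61, SE 0.44, edgeR adjusted p = 6.17e-06). The other 2 fell less: the Woronin body protein, PCON_09125, which plugs septal pores in damaged hyphae, had 1395 ± 537 CPM in protoapothecia and 3501 ± 38.1 CPM in dark mycelium. The UNC93-like membrane protein PCON_12327 had 972 ± 316 CPM in protoapothecia and 5544 ± 212 CPM in dark mycelium (-1.33 and -2.51 on the log2 scale). Per kilobase, PCON_04930 stood at 764 CPM in protoapothecia against 11512 in dark mycelium.

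Genes were gathered into 50 groups by their product descriptions or protein domains, and the groups leaned to different sides. Groups with a larger share of increases than the 38.0% of all genes included those of meiosis, cytochrome P450 enzymes, histones and pre-mRNA splicing. Groups with a larger share of decreases than the 34.4% of all genes included those of cytosolic ribosomal proteins, translation initiation, zinc cluster transcription factors, incompatibility genes, chaperones, glycolysis, chitin synthases and light sensing. No test of a group as a whole was made, and the counts are descriptions.

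**Figure D3:**
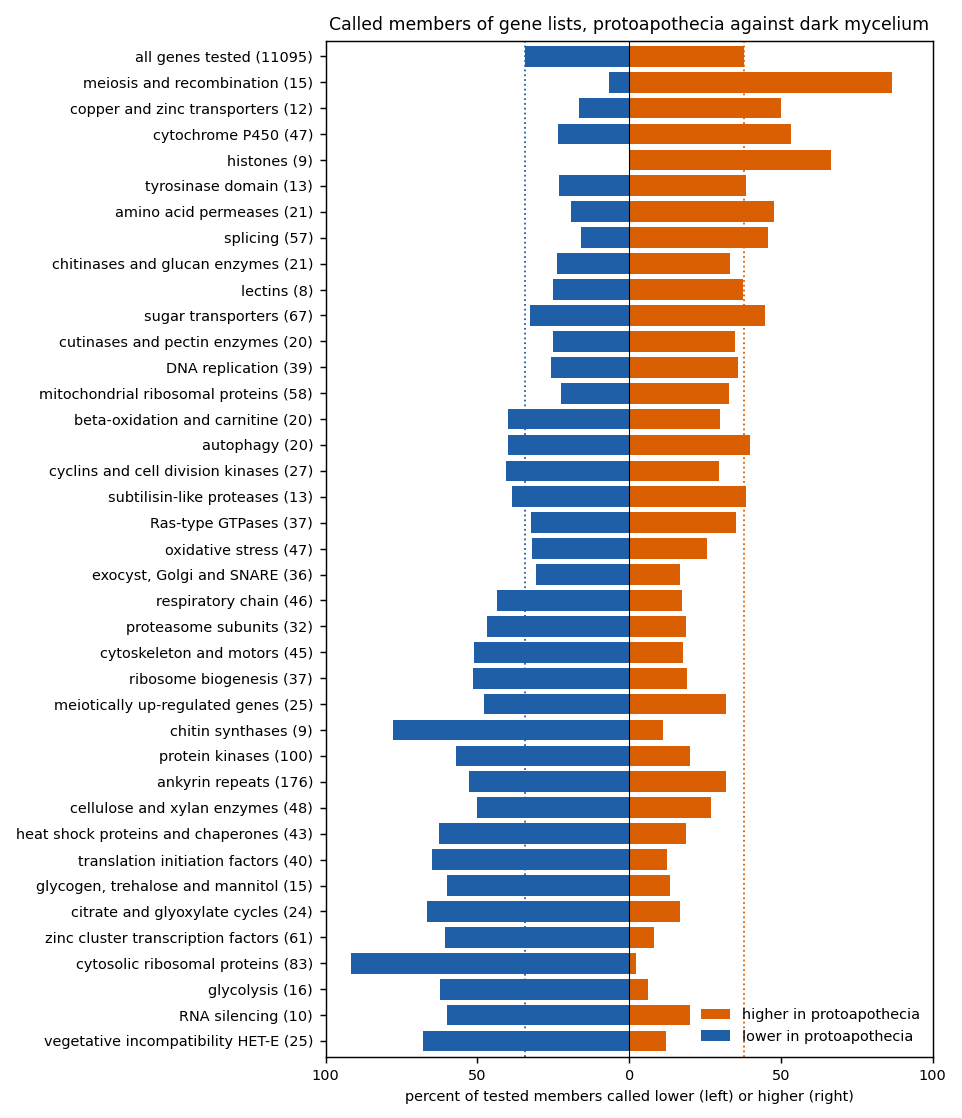
Percent of tested members that rose (to the right) and fell (to the left) in each gene group with at least 8 tested members, with all genes tested on top (38.0% rose, 34.4% fell). Cytosolic ribosomal proteins, of which 76 of 83 fell, and meiosis genes, of which 13 of 15 rose, mark the extremes.

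Meiosis and recombination genes were mostly higher in protoapothecia. Of 15 tested members, 13 rose and 1 fell (median log2 fold change 2.67, against 0.14 over all genes). NDT80, PCON_08807, the transcription factor that commits Saccharomyces cerevisiae cells to meiotic divisions, had 1313, 934 and 1764 CPM in protoapothecia, against 169 and 252 in dark mycelium (log2 fold change 2.67, SE 0.33, edgeR adjusted p = 8.03e-05). RIM4, PCON_12941, an RNA-binding activator of early meiotic genes in yeast, had 29.7, 11.8 and 28.6 CPM in protoapothecia, against 0.470 and 0.579 in dark mycelium (log2 fold change 5.47, SE 0.56, edgeR adjusted p = 2.62e-05). All 3 protoapothecia libraries lay above both dark libraries in either gene, which the rule for naming required. Without dark mycelium 1, 8 members rose. The gene of chromosome segregation in meiosis protein 3, PCON_14261, had 154 ± 38.96 CPM in protoapothecia and 16.9 ± 2.01 CPM in dark mycelium (log2 fold change 3.19, SE 0.31, edgeR adjusted p = 1.95e-05). The member that fell, PCON_01122, is named after the kinase that holds back mating and meiosis in Schizosaccharomyces pombe and had 26.4, 21.1 and 20.8 CPM in protoapothecia, against 1112 and 939 in dark mycelium (log2 fold change -5.49, SE 0.23, edgeR adjusted p = 6.02e-07). Further members were named after their values were seen. Mei2, PCON_07771, an RNA-binding protein required for meiosis in Schizosaccharomyces pombe, had 22.9 CPM in protoapothecia and 0.327 CPM in dark mycelium. The kinase mek1, PCON_03213, had 22.8 CPM in protoapothecia and 1.65 CPM in dark mycelium. The strand exchange gene DLH1, PCON_03294, had 15.4 CPM in protoapothecia and 0.558 CPM in dark mycelium. SPO11, PCON_04896, whose product makes the double-strand breaks that start recombination, had 2.37 CPM in protoapothecia and 0.793 CPM in dark mycelium (log2 fold changes 6.12, 3.79, 4.79 and 1.53 in the order given).

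The 25 tested genes described as meiotically up-regulated, a name from transcript surveys in Schizosaccharomyces pombe, leaned the other way, with 8 that rose and 12 that fell (median -0.75). The 4 with the smallest p all fell: PCON_12830, PCON_08869, PCON_05878 and PCON_03705, with log2 fold changes of -5.46, -4.09, -3.57 and -3.31.

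Of 5 mating genes, 3 rose and 1 fell (median 2.39). The mating-type gene MAT1-1-1, PCON_07491, had 192, 122 and 101 CPM in protoapothecia, against 27.8 and 24.9 in dark mycelium (log2 fold change 2.39, SE 0.31, edgeR adjusted p = 1.18e-04). The alpha factor receptor, PCON_02097, had 33.5, 20.2 and 45.1 CPM in protoapothecia, against 0 and 0.257 in dark mycelium (log2 fold change 7.91, SE 0.90, edgeR adjusted p = 5.00e-05). The second receptor gene, PCON_08875, had 4.72 ± 2.60 CPM in protoapothecia and 0.164 ± 0.0414 CPM in dark mycelium (log2 fold change 4.84, SE 0.78, edgeR adjusted p = 4.47e-04). All 3 were higher in every protoapothecia library, which the rule for naming required of MAT1-1-1 and the alpha factor receptor. The pheromone receptor transcription factor, PCON_08725, a MADS-box factor in yeasts, fell (164 ± 22.4 CPM in protoapothecia and 575 ± 42.8 CPM in dark mycelium, log2 fold change -1.80, SE 0.22, edgeR adjusted p = 7.48e-05). The other mating-type gene, described as a-1, PCON_08389, had 138, 103 and 71.5 CPM in protoapothecia, against 133 and 134 in dark mycelium, with overlapping groups and no call (edgeR adjusted p = 0.291).

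Developmental regulators split. Of 7 tested, wetA (PCON_02676), which matures conidia in Aspergillus nidulans, rose, with 1137, 1214 and 1223 CPM in protoapothecia, against 471 and 525 in dark mycelium (log2 fold change 1.26, SE 0.23, edgeR adjusted p = 9.34e-04). Of the 4 genes described as steA, a sexual development factor in that species, 3 fell. They were PCON_01154 (6.36 CPM in protoapothecia against 37.3 in dark mycelium), PCON_08484 (7.90 CPM in protoapothecia against 32.5 in dark mycelium) and PCON_08877 (245 CPM in protoapothecia against 620.0 in dark mycelium), with log2 fold changes of -2.52, -2.05 and -1.34. The steA gene with the highest CPM, PCON_10415, had 1087 ± 300.3 CPM in protoapothecia and 938 ± 75.7 CPM in dark mycelium, and its libraries overlapped between groups (edgeR adjusted p = 0.507). The regulator flbA (PCON_02904) was not called either, with 118 ± 33.8 CPM in protoapothecia and 115 ± 18.9 CPM in dark mycelium. Nor was stuA (PCON_09042), with 925 ± 176 CPM in protoapothecia and 619 ± 26.6 CPM in dark mycelium (edgeR adjusted p = 0.0508). Its libraries did not overlap, at 954, 736 and 1086 CPM in protoapothecia, against 600 and 638 in dark mycelium.

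Among conidiation-specific proteins, the Con-6 gene PCON_11571 carried nearly all transcripts in dark mycelium and was all but absent from protoapothecia, as given above. The 3 members that rose did so at low levels. The Con-6 gene PCON_11576 and PCON_05843, grouped with it, averaged 1.67 and 1.41 CPM in protoapothecia, against 0.260 and 0 CPM in dark mycelium. The call of PCON_11576 was lost without either dark library, and neither gene passed the count filter without protoapothecia A or C. Con-10, PCON_08706, had 1.67, 0.645 and 90.1 CPM in protoapothecia, against 0 and 0.643 in dark mycelium, and its call (edgeR adjusted p = 0.0269) was lost without protoapothecia C and without either dark library. Another Con-6 gene, PCON_11572, did not reach the count filter.

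NADPH oxidases make superoxide used in hyphal signalling, and striatin is a scaffold protein needed for fruiting bodies in Sordaria macrospora. Of 5 genes, Striatin Pro11 (PCON_13421) rose, with 286 ± 77.998 CPM in protoapothecia and 120.4 ± 0.850 CPM in dark mycelium, and so did NADPH oxidase activator 1 (PCON_05808), with 17.9 ± 8.28 CPM in protoapothecia and 0.0672 ± 0.0950 CPM in dark mycelium. The oxidase heavy chain gene PCON_03267 fell, with 2.75, 0.860 and 3.11 CPM in protoapothecia, against 152 and 130.4 in dark mycelium (log2 fold change -5.84, SE 0.42, edgeR adjusted p = 3.95e-06). The second heavy chain gene, PCON_03126, had 108 ± 43.8 CPM in protoapothecia and 108 ± 2.25 CPM in dark mycelium and was not called. A second striatin gene, PCON_03897, had 12.5, 15.5 and 222 CPM in protoapothecia, against 30.4 and 35.1 in dark mycelium and was not called (edgeR adjusted p = 0.276). Without protoapothecia C its log2 fold change turned to -1.16, against 1.35 with it.

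Light-sensing genes were low in protoapothecia: of 5, 4 fell and 0 rose (median -2.37). White collar 2, PCON_05086, which with white collar 1 forms the blue-light receptor complex of Neurospora, had 8.25, 8.38 and 6.07 CPM in protoapothecia, against 115 and 122 in dark mycelium (log2 fold change -3.98, SE 0.22, edgeR adjusted p = 1.16e-06). White collar 1, PCON_03119, had 5.50, 4.08 and 4.13 CPM in protoapothecia, against 23.04 and 24.8 in dark mycelium (log2 fold change -2.37, SE 0.29, edgeR adjusted p = 7.55e-05). The clock gene frequency, PCON_09365, had 14.8, 14.4 and 9.03 CPM in protoapothecia, against 208 and 168 in dark mycelium (log2 fold change -3.89, SE 0.27, edgeR adjusted p = 3.14e-06). In each, all 3 protoapothecia libraries lay below both dark libraries, which the rule for naming also required. The phytochrome gene PCON_06747, a red-light sensor family, had 49.6 ± 13.2 CPM in protoapothecia and 193 ± 25.6 CPM in dark mycelium (log2 fold change -1.96, SE 0.27, edgeR adjusted p = 1.59e-04). The cryptochrome DASH gene PCON_04123, at 6.34 ± 1.18 CPM in protoapothecia and 5.87 ± 2.70 CPM in dark mycelium, was not called. The light-sensing genes summed to 514 CPM on average in sexual mycelium, against 529 in dark mycelium and 80.9 in protoapothecia. The part of light in these differences was not tested.

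Of the carotenoid genes, the lycopene cyclase and phytoene synthase gene PCON_03423, which makes and cyclises the carotenoid backbone, had 792, 2451 and 1341 CPM in protoapothecia, against 1.21 and 3.79 in dark mycelium (log2 fold change 9.25, SE 0.84, edgeR adjusted p = 1.38e-05). Phytoene dehydrogenase, PCON_03421, which desaturates it, had 1330.0, 933 and 1590.1 CPM in protoapothecia, against 10.6 and 23.3 in dark mycelium (log2 fold change 6.24, SE 0.54, edgeR adjusted p = 1.06e-05). Both were abundant in every protoapothecia library and low in both dark libraries. The geranylgeranyl pyrophosphate synthase gene PCON_05718, whose product supplies the precursor, fell (9.47 ± 2.91 CPM in protoapothecia and 34.97 ± 5.76 CPM in dark mycelium, log2 fold change -1.88, SE 0.27, edgeR adjusted p = 2.19e-04). Summed, the carotenoid genes averaged 2822 CPM in protoapothecia, 54.4 in dark mycelium, 449 in sexual mycelium and 449 in the vegetative pool. The part of light in these differences was not tested. Pigment genes of other kinds were mixed. Among 13 genes with a tyrosinase domain 5 rose and 3 fell. The hemocyanin-like gene PCON_09691 had the lowest log2 fold change of them, with 24.003, 61.9 and 27.6 CPM in protoapothecia, against 3214 and 2357 in dark mycelium (log2 fold change -6.22, SE 0.46, edgeR adjusted p = 4.25e-06). The tyrosinase genes PCON_05010 and PCON_01522 rose. The means were 47.05 CPM in protoapothecia against 0.332 in dark mycelium for PCON_05010 and 22.4 CPM in protoapothecia against 0.389 in dark mycelium for PCON_01522. The tyrosinase gene PCON_01775 fell (17.4 CPM in protoapothecia against 308 in dark mycelium). Of the polyketide synthases and laccases, HetM (PCON_04030) rose by 1.06 on the log2 scale. The conidial yellow pigment synthase (PCON_04029) and laccase-2 (PCON_10802) fell, with log2 fold changes of -0.88 and -1.06. These 3 calls were lost without dark mycelium 2, and laccase-4 (PCON_13856) was not called.

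Of 47 cytochrome P450 genes 25 rose and 11 fell (median 1.28). Their summed level was 14134, 15546 and 15512 CPM in protoapothecia, against 5272 and 4450.2 in dark mycelium, higher in each protoapothecia library than in either dark library. Cytochrome P450 67, PCON_06415, carried the most, with 5303, 5356 and 4914 CPM in protoapothecia, against 18.9 and 23.3 in dark mycelium (log2 fold change 7.94, SE 0.32, edgeR adjusted p = 6.02e-07). P450 52A5, PCON_02181, a fatty acid or alkane hydroxylase in Candida, had 1029.9 ± 128 CPM in protoapothecia and 77.99 ± 9.96 CPM in dark mycelium (log2 fold change 3.72, SE 0.28, edgeR adjusted p = 4.82e-06). In the other direction, the gene named after pisatin demethylase, which lets Nectria detoxify a pea defence compound, PCON_02468, had 3.19, 1.93 and 3.79 CPM in protoapothecia, against 308 and 304 in dark mycelium (log2 fold change -6.61, SE 0.30, edgeR adjusted p = 8.00e-07). Oxylipin oxygenases, which make fatty acid signals that tune spore development in Aspergillus, had 3 that rose and 2 that fell of 6 tested, of 9 in the table. The Psi-producing oxygenase gene PCON_11932 had the highest CPM of the group in dark mycelium and is counted among the cytochrome P450 genes too, with 97.7, 172 and 67.3 CPM in protoapothecia, against 2593 and 1683 in dark mycelium (log2 fold change -4.26, SE 0.39, edgeR adjusted p = 1.45e-05). PCON_10323 had the highest in protoapothecia, with 951, 850.0 and 825 CPM in protoapothecia, against 267 and 343 in dark mycelium (log2 fold change 1.52, SE 0.26, edgeR adjusted p = 5.73e-04). PCON_07013 (16.4 CPM in protoapothecia against 0.231 in dark mycelium) and the lipoxygenase gene PCON_08404 (118 CPM in protoapothecia against 2.77 in dark mycelium) also rose. The lipoxygenase gene PCON_08403 fell (0.136 CPM in protoapothecia against 1.25 in dark mycelium), and PCON_13884 was not called (124 ± 10.3 CPM in protoapothecia and 77.2 ± 10.5 CPM in dark mycelium).

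Lectins, proteins that bind sugars and are abundant in many fruiting bodies, summed to 23379.7, 21998 and 15633 CPM in protoapothecia, against 1649 and 1634 in dark mycelium. Of that sum in protoapothecia, 67.4% came from PCON_04233. Of 8 tested, 3 rose and 2 fell (37.5% and 25.0%, against 38.0% and 34.4% of all genes). Besides PCON_04233 and PCON_12683 above, the L-type lectin-like gene PCON_04779, of a family that sorts glycoproteins, rose (358 ± 81.1 CPM in protoapothecia and 75.5 ± 6.97 CPM in dark mycelium). The fucose-specific lectin gene PCON_01052 and galectin-3 (PCON_06081) fell (33.1 CPM in protoapothecia against 73.3 in dark mycelium and 0.0880 CPM in protoapothecia against 9.78 in dark mycelium). PCON_04232, a fucose-specific lectin gene listed next to PCON_04233, had 1494, 2055 and 1033 CPM in protoapothecia, against 1386 and 1339 in dark mycelium and was not called (edgeR adjusted p = 0.652).

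Genes for breaking down plant walls went both ways. Of 20 cutinase and pectin genes 7 rose and 5 fell. The cutinase gene PCON_03950 had 1982, 1510.4 and 2261 CPM in protoapothecia, against 100.1 and 88.5 in dark mycelium (log2 fold change 4.35, SE 0.30, edgeR adjusted p = 2.90e-06). The cutinase genes PCON_11410 (297 CPM in protoapothecia against 2.10 in dark mycelium) and PCON_09444 (66.04 CPM in protoapothecia against 0.165 in dark mycelium) rose too. So did the rhamnogalacturonan acetylesterase gene PCON_10535 (247 CPM in protoapothecia against 0.259 in dark mycelium), whose enzyme trims pectin side groups. Of 48 cellulose and xylan genes 13 rose and 24 fell (median -1.01). A single gene, the endo-beta-1,4-glucanase D gene PCON_01996, took the most counts of the group in protoapothecia, with 1668, 2181 and 2298 CPM in protoapothecia, against 0.739 and 0.708 in dark mycelium (log2 fold change 11.45, SE 0.51, edgeR adjusted p = 8.00e-07). The beta-glucosidase genes PCON_09067 (1.69 CPM in protoapothecia against 154 in dark mycelium) and PCON_12780 (3.04 CPM in protoapothecia against 116 in dark mycelium) fell. The endoglucanase gene PCON_11459 (0.114 CPM in protoapothecia against 18.98 in dark mycelium) fell as well.

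Of 9 chitin synthases, which build the chitin of the fungal wall, 7 fell and 1 rose (median -0.94). Chitin synthase G PCON_05667 had 8.49, 8.596 and 7.53 CPM in protoapothecia, against 201 and 212 in dark mycelium (log2 fold change -4.66, SE 0.28, edgeR adjusted p = 1.78e-06). Chitin synthase 6 PCON_06132 had 46.8, 79.5 and 38.6 CPM in protoapothecia, against 618 and 581 in dark mycelium (log2 fold change -3.46, SE 0.34, edgeR adjusted p = 2.17e-05). Chitin synthase 2, PCON_05772, was the member that rose (249 ± 57.5 CPM in protoapothecia and 62.2 ± 4.59 CPM in dark mycelium, log2 fold change 2.002, SE 0.27, edgeR adjusted p = 1.43e-04). The smallest of the 7 decreases was that of the chitin synthase G gene PCON_06635 (log2 fold change -0.61, SE 0.24, edgeR adjusted p = 0.0435). Chitin synthase D PCON_04752 was not called (232 ± 54.3 CPM in protoapothecia and 284 ± 89.7 CPM in dark mycelium). Chitinases and glucan enzymes divided, with 7 that rose and 5 that fell of 21, and their summed level was 4451, 3946 and 5468 CPM in protoapothecia, against 4382 and 4917 in dark mycelium, with overlapping groups. The endo-1,3(4)-beta-glucanase 2 gene PCON_07784 fell (36.9 ± 29.05 CPM in protoapothecia and 1042 ± 81.3 CPM in dark mycelium), and the glucan 1,3-beta-glucosidase gene PCON_14053 rose (859.7 ± 198 CPM in protoapothecia and 271 ± 17.9 CPM in dark mycelium). Wall mannoproteins of the PIR and CIS3 types rose in 3 of 3 tested, but unevenly. PIR3 PCON_13945 had 2.95, 42.8 and 398 CPM in protoapothecia, against 0.0672 and 0.579 in dark mycelium. PIR3 PCON_11160 had 19.98, 67.5 and 297 CPM in protoapothecia, against 0.873 and 2.51 in dark mycelium. CIS3 PCON_07292 overlapped between the groups, with 0.491, 19.1 and 129 CPM in protoapothecia, against 0.605 and 0.965 in dark mycelium, and was not called without protoapothecia C or without either dark library. Protoapothecia C was the highest library in all 3, and the mean in sexual mycelium, 791, 1128 and 646 CPM, was higher again. Of 13 subtilisin-like proteases 5 rose and 5 fell, among them PCON_12819, named as a major intracellular serine protease, which rose (352 ± 190.4 CPM in protoapothecia and 0.130 ± 0.0889 CPM in dark mycelium).

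Metal and amino acid uptake genes included large increases. Of 12 copper and zinc transporters 6 rose and 2 fell, and their summed level was 2142, 1580.2 and 2032 CPM in protoapothecia, against 361 and 397 in dark mycelium. The copper transporter gene ctr4, PCON_11039, had 1004, 571 and 899 CPM in protoapothecia, against 0.470 and 0.0643 in dark mycelium (log2 fold change 11.57, SE 0.76, edgeR adjusted p = 2.44e-06). CTR2, PCON_13123, had 377 ± 28.3 CPM in protoapothecia and 107 ± 17.2 CPM in dark mycelium (log2 fold change 1.81, SE 0.26, edgeR adjusted p = 2.17e-04). Of 21 amino acid permeases 10 rose and 4 fell (47.6% and 19.0%, against 38.0% and 34.4% of all genes). The general permease gene AGP2 (PCON_02250) rose, with 218 ± 32.7 CPM in protoapothecia and 7.58 ± 2.65 CPM in dark mycelium. The polyamine transporter gene TPO5 (PCON_13401) rose as well, with 1052 ± 184 CPM in protoapothecia and 87.4 ± 6.70 CPM in dark mycelium. The general permease gene GAP1 (PCON_01985) fell, with 492 ± 84.3 CPM in protoapothecia and 1907 ± 287 CPM in dark mycelium. Of 3 ammonium transporters, MEP3 (PCON_08711, 67.7 CPM in protoapothecia against 441 in dark mycelium) and PCON_12699 (6.91 CPM in protoapothecia against 56.5 in dark mycelium) fell, and PCON_08415 was not called (3.98 ± 1.52 CPM in protoapothecia and 4.88 ± 3.54 CPM in dark mycelium). Sugar transporters numbered 67, and their sums were 9119.8, 8509 and 9464 CPM in protoapothecia, against 9522 and 10744 in dark mycelium. Of the 67 genes, 30 rose and 22 fell (44.8% and 32.8%, against 38.0% and 34.4% of all genes). Within them, rco-3 (PCON_03384), a glucose sensor in Neurospora, fell (282 ± 85.6 CPM in protoapothecia and 2933 ± 423 CPM in dark mycelium, log2 fold change -3.38, SE 0.30, edgeR adjusted p = 1.17e-05). The glucose transporter genes PCON_01309 (1.73 CPM in protoapothecia against 64.1 in dark mycelium) and PCON_10432 (0.593 CPM in protoapothecia against 17.7 in dark mycelium) fell too. PCON_07867, named after the yeast drug exporter for quinidine, rose (88.2 ± 8.65 CPM in protoapothecia and 2.77 ± 1.45 CPM in dark mycelium).

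Cytosolic ribosomal protein genes fell nearly throughout: of 83 tested, 76 fell and 2 rose (median -1.95). Their summed level was 12686, 12886 and 13276 CPM in protoapothecia, against 49843 and 48938 in dark mycelium. Every protoapothecia library held less than either dark library. L30-1 (PCON_09052) had 28.4, 25.8 and 26.9 CPM in protoapothecia, against 572 and 542 in dark mycelium (log2 fold change -4.36, SE 0.22, edgeR adjusted p = 1.02e-06). The S20 (PCON_13267), S22 (PCON_06603) and L7 (PCON_13461) genes had log2 fold changes of -3.94, -3.17 and -3.19. The 2 that rose, named after their values were seen, were the acidic protein P0 gene PCON_02490, at 77.2 CPM in protoapothecia and 10.7 CPM in dark mycelium, and an S27 gene, PCON_12039, at 10.8 CPM in protoapothecia and 2.16 CPM in dark mycelium. Ribosomal protein families can hold near-identical copies, between which counts are uncertain. Translation initiation factors leaned down as well, with 26 of 40 that fell and 5 that rose (median -1.15). An initiation factor gene, PCON_09275, had 3.58, 3.44 and 2.33 CPM in protoapothecia, against 234 and 251 in dark mycelium (log2 fold change -6.30, SE 0.25, edgeR adjusted p = 6.02e-07). Subunits of factors 2 and 3, PCON_13340, PCON_12534 and PCON_13349, fell, with log2 fold changes of -2.83, -3.85 and -3.003. Ribosome biogenesis genes fell in 19 of 37 and rose in 7. The small subunit assembly genes tsr1 (PCON_01793, 6.35 CPM in protoapothecia against 115 in dark mycelium) and bms1 (PCON_11434, 10.3 CPM in protoapothecia against 55.7 in dark mycelium) fell. Nucleolar protein 9 (PCON_03116, 168 CPM in protoapothecia against 19.9 in dark mycelium) rose. Of 58 mitochondrial ribosomal proteins 19 rose (32.8%, against 38.0% of all genes) and 13 fell (22.4%, against 34.4%), with a median of 0.17. They summed to 2989, 3097 and 2459 CPM in protoapothecia, against 1352 and 1411 in dark mycelium. Without either dark library 12 rose. The largest part of that came from PCON_02577, an S26A-like protein, which had 569.9 ± 85.7 CPM in protoapothecia and 22.1 ± 0.353 CPM in dark mycelium (log2 fold change 4.69, SE 0.29, edgeR adjusted p = 1.88e-06).

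**Figure D4:**
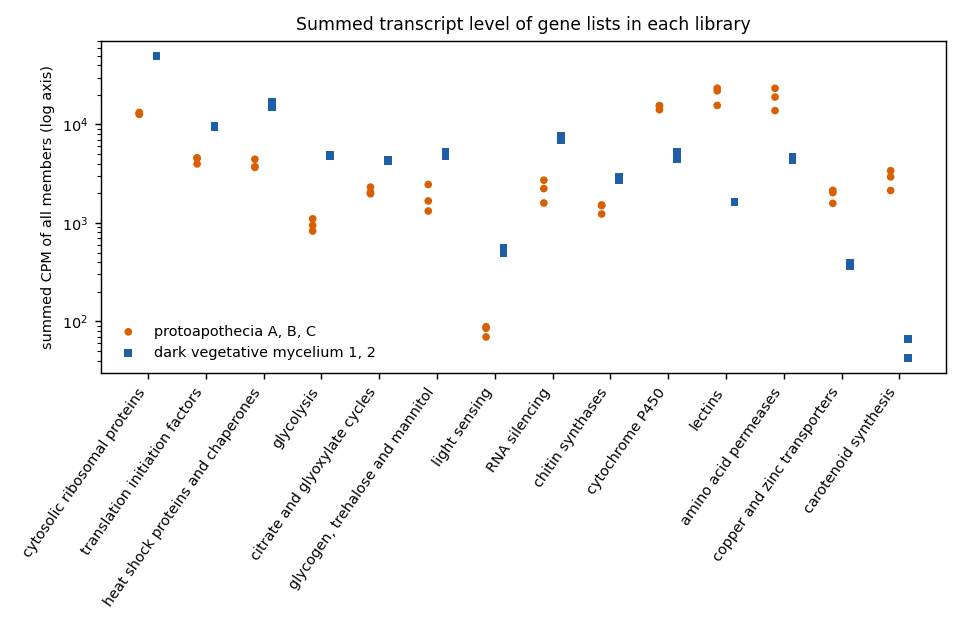
Summed CPM of all members in each library (log axis) for 14 gene groups, protoapothecia libraries left of dark mycelium libraries in the legend. Cytosolic ribosomal proteins and chaperones are lower in all 3 protoapothecia libraries, and lectins, cytochrome P450 genes and amino acid permeases are higher in all 3. In protoapothecia, PCON_04233 alone makes up 67.4% of the lectin sum, and PCON_08572 alone 63.6% of the permease sum.

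Genes of central carbon metabolism were mostly lower in protoapothecia. Of 16 glycolysis genes 10 fell and 1 rose (median -2.11), and their sum was 828, 946 and 1101 CPM in protoapothecia, against 4896 and 4807 in dark mycelium. Enolase, PCON_11324, had 50.8, 59.1 and 71.1 CPM in protoapothecia, against 1137 and 1107 in dark mycelium (log2 fold change -4.22, SE 0.25, edgeR adjusted p = 1.58e-06). Pyruvate kinase, PCON_04428, had 44.6 ± 2.50 CPM in protoapothecia and 342 ± 9.93 CPM in dark mycelium. Triosephosphate isomerase, PCON_02856, had 35.4 ± 3.37 CPM in protoapothecia and 265 ± 40.3 CPM in dark mycelium. The fructose-bisphosphate aldolase gene PCON_05063 fell to 0.884, 1.07 and 1.12 CPM in protoapothecia, against 100.4 and 90.9 in dark mycelium (log2 fold change -6.55, SE 0.32, edgeR adjusted p = 9.21e-07). Of 24 genes of the citrate and glyoxylate cycles 16 fell and 4 rose (median -1.47). Isocitrate lyase, PCON_11839, the entry enzyme of the glyoxylate shunt, had 6.38, 7.31 and 8.94 CPM in protoapothecia, against 105 and 137 in dark mycelium (log2 fold change -4.0003, SE 0.28, edgeR adjusted p = 3.62e-06). Malate dehydrogenase, PCON_12748, had 76.6 ± 16.7 CPM in protoapothecia and 451 ± 8.43 CPM in dark mycelium. The respiratory chain was less one-sided, with 20 that fell and 8 that rose of 46. The ATP synthase beta subunit (PCON_01281) had 268 ± 29.8 CPM in protoapothecia and 1084 ± 3.32 CPM in dark mycelium. A cytochrome c oxidase 6B-like subunit (PCON_11947) had 142 ± 23.5 CPM in protoapothecia and 18.3 ± 3.26 CPM in dark mycelium. In a fit of the 5 libraries alone, 13 of the 46 fell, as without dark mycelium 1, and 5 rose without dark mycelium 2. The median of the group was -0.33. Reserve carbohydrate genes fell in 9 of 15 and rose in 2 (median -1.18). Besides glycogenin and mannitol dehydrogenase above, glycogen synthase, PCON_05793, had 29.7, 21.1 and 86.2 CPM in protoapothecia, against 681 and 712 in dark mycelium (log2 fold change -3.92, SE 0.52, edgeR adjusted p = 1.27e-04). The debranching enzyme, PCON_06222, had 46.2 ± 17.5 CPM in protoapothecia and 424 ± 4.02 CPM in dark mycelium. Named after its value was seen, trehalose phosphorylase, PCON_03866, rose (99.1 CPM in protoapothecia and 8.27 CPM in dark mycelium). In beta-oxidation and carnitine transport 6 rose and 8 fell of 20. The acyl-CoA dehydrogenase gene PCON_12882 (208 CPM in protoapothecia against 39.4 in dark mycelium) and the enoyl-CoA hydratase gene PCON_11037 (231 CPM in protoapothecia against 70.4 in dark mycelium) rose. The carnitine acetyltransferase gene PCON_06039 (4.57 CPM in protoapothecia against 93.4 in dark mycelium) and the carnitine carrier gene PCON_07689 (23.5 CPM in protoapothecia against 80.3 in dark mycelium) fell.

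Chaperone genes were lower in protoapothecia: 27 of 43 fell and 8 rose (median -1.09), and the sum was 3665, 3729 and 4431 CPM in protoapothecia, against 15118 and 17189.6 in dark mycelium. Heat shock 70 kDa protein 2, PCON_06550, had 153, 240.3 and 147 CPM in protoapothecia, against 4137 and 4484 in dark mycelium (log2 fold change -4.58, SE 0.29, edgeR adjusted p = 2.16e-06). The HSP90 homolog, PCON_11855, had 239, 252 and 296 CPM in protoapothecia, against 3421 and 3772 in dark mycelium (log2 fold change -3.78, SE 0.23, edgeR adjusted p = 1.81e-06). The mitochondrial DnaJ homolog 1, PCON_01829, was near 0 in protoapothecia (0.654 ± 0.0224 CPM in protoapothecia and 35.4 ± 6.99 CPM in dark mycelium). Proteasome genes fell in 15 of 32 and rose in 6, with a sum of 4831, 5508 and 4970.4 CPM in protoapothecia, against 5284 and 5309.8 in dark mycelium. The sums of the groups overlapped. The regulatory subunits rpn2 (PCON_14178) and 4 (PCON_10017) fell, with log2 fold changes of -2.55 and -3.12. Autophagy genes divided evenly, 8 and 8 of 20. Those that fell included atg13 (PCON_09673, 9.01 CPM in protoapothecia against 283 in dark mycelium) and atg2 (PCON_04554, 6.02 CPM in protoapothecia against 252 in dark mycelium). The protease gene atg4 (PCON_03094, 4.597 CPM in protoapothecia against 86.6 in dark mycelium) and the activating enzyme gene PCON_02799 (1.99 CPM in protoapothecia against 115 in dark mycelium) fell too. Of 47 oxidative stress genes 12 rose and 15 fell. The glutathione transferase genes PCON_01201 (1289.8 CPM in protoapothecia against 36.3 in dark mycelium) and PCON_13035 (741 CPM in protoapothecia against 82.04 in dark mycelium) rose. Cytochrome c peroxidase (PCON_01441, 51.8 CPM in protoapothecia against 307 in dark mycelium) and the manganese superoxide dismutase (PCON_10166, 9.60 CPM in protoapothecia against 86.1 in dark mycelium) fell. Metacaspases, proteases related to caspases, rose in 3 of 4 tested of 7 in the table, led by PCON_14286, with 538, 532 and 940.1 CPM in protoapothecia, against 173 and 189 in dark mycelium (log2 fold change 1.89, SE 0.29, edgeR adjusted p = 3.16e-04). The other members that rose were PCON_01046 (6.44 CPM in protoapothecia against 0.0336 in dark mycelium) and PCON_10130 (1.17 CPM in protoapothecia against 0.101 in dark mycelium). The call of PCON_10130 was lost without either dark library and in DESeq2. PCON_13423 (1.62 ± 2.43 CPM in protoapothecia and 1.32 ± 0.133 CPM in dark mycelium) was not called and turned negative without protoapothecia C. All 3 AlcS family genes, membrane proteins of a family linked to acetate uptake, rose. PCON_11585 made up most of their level, with 4034, 5371 and 3282 CPM in protoapothecia, against 105 and 197 in dark mycelium (log2 fold change 4.81, SE 0.48, edgeR adjusted p = 2.40e-05).

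Of 9 histone genes 6 rose and 0 fell, with a median of 0.89, and 3 rose without either dark library. The variant H2A.Z, PCON_13456, had 741, 742 and 667 CPM in protoapothecia, against 114 and 139 in dark mycelium (log2 fold change 2.50, SE 0.21, edgeR adjusted p = 7.95e-06). H4.2, PCON_07103, had 306, 141 and 313 CPM in protoapothecia, against 37.7 and 48.2 in dark mycelium (log2 fold change 2.56, SE 0.36, edgeR adjusted p = 1.92e-04). The calls of the next 3 were lost without 1 or more of the libraries. H3 (PCON_13209), linker histone H1 (PCON_05919) and an H4.1 gene (PCON_05222) rose by less, 0.82, 0.89 and 1.25 on the log2 scale. H2A (PCON_05921), H2B (PCON_05922) and the other H4.1 gene (PCON_13210) were not called. H4 genes can be near-identical, so how their counts were divided is uncertain, and a centromeric H3 gene model that overlaps another gene rose too. Pre-mRNA splicing genes rose in 26 of 57 and fell in 9 (median 0.55). Splicing factor 18 (PCON_13171) was among those that rose, with 281 ± 42.9 CPM in protoapothecia and 34.99 ± 0.271 CPM in dark mycelium. The U2 protein gene PCON_01440 was another, with 139 ± 13.5 CPM in protoapothecia and 28.6 ± 2.23 CPM in dark mycelium. Of 39 DNA replication genes 14 rose and 10 fell. Replication factor C subunit 2 (PCON_09191), part of the clamp loader, rose (83.1 CPM in protoapothecia against 11.6 in dark mycelium). Ribonucleotide reductase (PCON_07770, 51.9 CPM in protoapothecia against 388 in dark mycelium) and the polymerase alpha catalytic subunit (PCON_10612, 14.4 CPM in protoapothecia against 91.4 in dark mycelium) fell. Cyclins and cell division kinases included 8 that rose and 11 that fell of 27. CCL1 (PCON_03978) rose (108 ± 4.81 CPM in protoapothecia and 13.1 ± 1.56 CPM in dark mycelium). The PHO85 cyclin-2 gene (PCON_06241) fell (4.14 ± 1.19 CPM in protoapothecia and 233 ± 21.6 CPM in dark mycelium).

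Zinc cluster transcription factors, a fungal family of regulators, fell in 37 of 61 and rose in 5 (median -1.47). Fluconazole resistance protein 1, PCON_03178, had 6.48, 6.45 and 7.58 CPM in protoapothecia, against 348 and 344 in dark mycelium (log2 fold change -5.65, SE 0.21, edgeR adjusted p = 5.85e-07). The moc3 gene PCON_07816 had 2.59 ± 0.766 CPM in protoapothecia and 84.8 ± 5.11 CPM in dark mycelium. The moc3 pair PCON_04934 (14.6 CPM in protoapothecia against 135 in dark mycelium) and PCON_06214 (13.99 CPM in protoapothecia against 134 in dark mycelium) had nearly equal values in every library and may share reads. RNA silencing genes fell in 6 of 10 and rose in 2 (median -2.53). The RNA-dependent RNA polymerase gene PCON_09614 had 135, 99.5 and 228 CPM in protoapothecia, against 2899 and 3597 in dark mycelium (log2 fold change -4.40, SE 0.38, edgeR adjusted p = 1.05e-05). Dicer-like protein 1, PCON_07058, which cuts double-stranded RNA, had 18.5, 8.38 and 11.99 CPM in protoapothecia, against 173 and 138 in dark mycelium (log2 fold change -3.56, SE 0.32, edgeR adjusted p = 1.33e-05). Argonaute 1 (PCON_08335), of a family that carries the small RNAs, fell as well (28.2 ± 16.03 CPM in protoapothecia and 395 ± 1.98 CPM in dark mycelium). So did the argonaute gene PCON_03180 (811 ± 339.7 CPM in protoapothecia and 2298 ± 145 CPM in dark mycelium). The members that rose were argonaute 10 (PCON_13881, 531 ± 110.2 CPM in protoapothecia and 208 ± 2.30 CPM in dark mycelium) and argonaute 12 (PCON_14146, 347 ± 84.95 CPM in protoapothecia and 222 ± 6.45 CPM in dark mycelium). The call of argonaute 12 was lost without protoapothecia A and without either dark library. Dicer-like protein 2 (PCON_12321, 109 ± 59.1 CPM in protoapothecia and 206 ± 47.1 CPM in dark mycelium) was not called. The polymerase gene PCON_08583 (173 ± 12.9 CPM in protoapothecia and 108 ± 4.58 CPM in dark mycelium) was not called either.

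Genes of self-recognition and signalling were mostly lower. Incompatibility genes of the HET-E kind, which trigger rejection between unlike strains in Podospora, fell in 17 of 25 and rose in 3 (median -3.39). Fewer of them were called lower without 1 of the dark libraries, when a single one remains in that group, and the cause was not tested. Among those that fell were PCON_14268 (0.332 CPM in protoapothecia against 22.4 in dark mycelium) and PCON_08266 (1.196 CPM in protoapothecia against 38.6 in dark mycelium). The HET-6 gene PCON_02361 averaged 1.27 CPM in protoapothecia against 49.3 in dark mycelium. Of 176 genes with ankyrin repeats 93 fell and 56 rose (median -0.98). The ankyrin-1 gene PCON_06925 had 51.7, 56.95 and 62.1 CPM in protoapothecia, against 2118 and 2388 in dark mycelium (log2 fold change -5.31, SE 0.25, edgeR adjusted p = 8.43e-07). PCON_07807 had 323, 316 and 252 CPM in protoapothecia, against 12.4 and 12.5 in dark mycelium (log2 fold change 4.57, SE 0.25, edgeR adjusted p = 1.14e-06). Both families are repetitive, and counts of near-identical members are uncertain. Of 100 protein kinases 57 fell and 20 rose (median -0.97). The kinase genes ssp1 (PCON_13641, 18.7 CPM in protoapothecia against 531 in dark mycelium) and lkh1 (PCON_01564, 9.98 CPM in protoapothecia against 160.0 in dark mycelium) fell. The kinase gene ppk15 (PCON_10614) fell as well, with 1.30 CPM in protoapothecia against 64.4 in dark mycelium. Of 37 Ras-type GTPases 13 rose (35.1%) and 12 fell (32.4%), against 38.0% and 34.4% of all genes. RABB1b (PCON_06784) rose (204 ± 30.05 CPM in protoapothecia and 19.8 ± 2.97 CPM in dark mycelium). The genes RHO3 (PCON_11029, 3.19 CPM in protoapothecia against 46.999 in dark mycelium) and rho2 (PCON_12532, 1.10 CPM in protoapothecia against 21.4 in dark mycelium) fell. Cytoskeleton and motor genes fell in 23 of 45 and rose in 8. Myosin-2 (PCON_11606) fell (7.17 ± 3.42 CPM in protoapothecia and 418 ± 22.3 CPM in dark mycelium), and so did tropomyosin, which binds actin cables (PCON_12929, 185 ± 38.4 CPM in protoapothecia and 1616 ± 116 CPM in dark mycelium). In secretion, 6 rose and 11 fell of 36 exocyst, Golgi and SNARE genes. The Golgi complex subunit 2 gene PCON_05653 (636 CPM in protoapothecia against 19.2 in dark mycelium) and the coatomer zeta gene PCON_08919 (449 CPM in protoapothecia against 46.2 in dark mycelium) rose. The vesicle coat assembly gene sec16 (PCON_06156, 9.03 CPM in protoapothecia against 140.4 in dark mycelium) and exocyst component 2 (PCON_09555, 7.80 CPM in protoapothecia against 86.1 in dark mycelium) fell.

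Genes annotated only as proteins of unknown function made up 45.6% of the genes that rose, 20.9% of those that fell and 32.5% of all genes tested. With hypothetical, predicted and uncharacterized proteins added, genes with no product that names a protein or function were 62.4% of those that rose, 42.6% of those that fell and 52.0% of all tested. Among the 1017 genes with a log2 fold change above 5, groups under the floor set at it, 763 (75.0%) were of unknown function. PCON_11123 (scaffold 580, bases 48180 to 49065), of unknown function, had 516, 321 and 488 CPM in protoapothecia, against 0 and 0 in dark mycelium, at least 4479-fold higher (edgeR adjusted p = 1.93e-06). PCON_01561 had 4753, 4223 and 3671 CPM in protoapothecia, against 0.134 and 0.129 in dark mycelium (log2 fold change 14.89, SE 0.58, edgeR adjusted p = 6.02e-07). In the other direction PCON_12798 had 0, 0 and 0 CPM in protoapothecia, against 58.4 and 223 in dark mycelium, at least 2137-fold lower, and dark mycelium 1 was far below dark mycelium 2. PCON_01924, with 0 reads in protoapothecia and 19.3 CPM in dark mycelium, and PCON_06604, with 0.153 ± 0.134 CPM in protoapothecia and 95.6 ± 10.98 CPM in dark mycelium, followed. In all, 388 tested genes had 0 counts in both dark libraries, 343 of them of unknown function. They passed the count filter only through protoapothecia, so they had to differ, and the same holds for the 25 tested genes with 0 counts in all protoapothecia libraries.

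Some genes that rose lay side by side. The longest run of neighbours on a scaffold that all rose held 20 genes, PCON_12260 to PCON_12279 on scaffold 677 (bases 41234 to 76186), all of unknown function. Its median log2 fold change was 6.63, with the 10 genes under 3 counts in dark mycelium set at the floor. The gene PCON_12270 in it had 308, 131 and 190.5 CPM in protoapothecia, against 0 and 0 in dark mycelium, and levels in the run differed widely, with PCON_12278 at 1.07 CPM in protoapothecia. The next run held 16 genes on scaffold 222 (bases 87900 to 130921, PCON_05828 to PCON_05843, 14 of unknown function), with a median of 5.40 when its 8 genes under 3 dark counts were set at the floor. Another held 11 genes on scaffold 1087 (bases 185639 to 208768, PCON_01377 to PCON_01387, 8 of unknown function), with a median of 6.08 when 5 genes were so set. Runs of genes that fell reached 8 genes. In PCON_12823 to PCON_12830 on scaffold 745 (bases 69542 to 88070, median -4.16) the neighbours PCON_12827 and PCON_12828 were among the abundant transcripts of dark mycelium, with 46.9, 86.8 and 44.04 CPM in protoapothecia, against 11070.1 and 9239 in dark mycelium for PCON_12827. PCON_12828 had 61.7, 38.9 and 43.996 CPM in protoapothecia, against 4483 and 4018 in dark mycelium. A run on scaffold 543 (bases 49520 to 83027, median -2.72) held fimbrin, an actin-bundling protein (PCON_10662, 182 CPM in protoapothecia against 352 in dark mycelium). It also held a beta-glucosidase gene (PCON_10663, 8.68 CPM in protoapothecia against 47.99 in dark mycelium). A run on scaffold 845 (bases 66212 to 85000, median -1.59) held 2 genes for subunits of initiation factor 3, PCON_13349 (39.3 CPM in protoapothecia against 315 in dark mycelium) and PCON_13351 (67.7 CPM in protoapothecia against 179 in dark mycelium). Whether adjacent gene models share transcripts was not tested.

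The calls varied with transcript length. In 5 classes of 2219 genes each, from the shortest (132 to 783 bases) to the longest (2349 to 19662 bases), 50.1, 45.8, 40.4, 32.0 and 21.8% of genes rose, and 24.6, 27.4, 32.3, 38.4 and 49.2% fell. The median log2 fold change was 1.43 in the shortest and -0.68 in the longest class. Measured against the median of their own length class, ribosomal protein genes stood lower (-2.93 in place of -1.95) and meiosis genes higher (3.31 in place of 2.67). The medians of histones (-0.18 in place of 0.89), mitochondrial ribosomal proteins (-0.60 in place of 0.17), autophagy genes and subtilisin-like proteases changed sign. Zinc cluster factors stood at -1.17, protein kinases at -0.56 and chitin synthases at -0.27 on that scale. Amplification of the protoapothecia RNA moves with the groups, and its part in the relation with length was not tested.

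**Figure D5:**
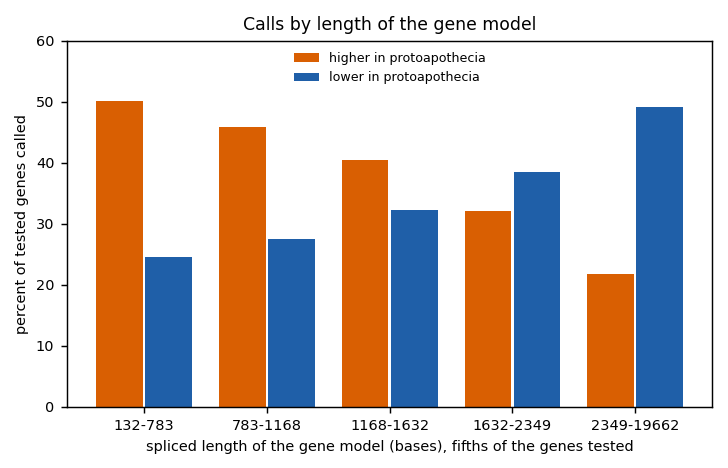
Percent of genes that rose and that fell in protoapothecia in 5 classes of transcript length, from 132 to 783 bases on the left to 2349 to 19662 bases on the right, 2219 genes a class. The share that rose drops to 21.8% in the longest class, against 50.1% in the shortest, and the share that fell is 49.2% in the longest class, against 24.6% in the shortest.

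Single protoapothecia libraries stood apart from the other 2 in some genes, C most often. After adding 1 CPM, it was at least 4-fold above both others in 139 genes, against 14 genes for A and 6 for B. Protoapothecia B was at least 4-fold below both others in 39 genes, against 8 for A and 8 for C. Sexual mycelium averaged at least 10 CPM in 91 of the 139 genes high in C, and dark mycelium in 58. The wall mannoproteins, Con-10 and the second striatin gene above are among the 139. The endochitinase gene PCON_11242 is another, with 6.82, 5.37 and 30.3 CPM in protoapothecia, against 0 and 0 in dark mycelium (edgeR adjusted p = 5.36e-04). With 0 dark counts, PCON_11242 passed the count filter only through protoapothecia. Why protoapothecia C differs in the 139 genes was not tested.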

How the data were processed

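RNA sequencing measured transcript levels in 9 libraries, of which 3 of protoapothecia and 2 of dark vegetative mycelium are compared. The authors deposited 1 table of raw read counts per gene model, per the file headers, with no normalization. Beside the counts, the deposited table gives the lengths of the gene models and a consensus score from the authors for each pair of groups, coded -1, 0 or 1. CASAVA 1.8.2 and DESeq, without a version, are named in the submitters' processing notes. How reads were aligned and counted, on which build and with or without strand, is not given in the sources used here. Genes whose models overlap (386 of those tested) are therefore not named. All library columns belong to the 9 libraries, with 0 others.

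The test was edgeR 4.0.16, run with limma 3.58.1 under R 4.3.3. Genes with at least 10 counts in 2 or more of the 5 libraries were kept, libraries were scaled by TMM, and 4 groups were fitted together with a robust quasi-likelihood model (5 residual degrees of freedom). Protoapothecia minus dark mycelium was tested two-sided, with Benjamini-Hochberg adjustment over all 11095 genes and a threshold of 0.05. The standard error is the size of the log2 fold change divided by the square root of the F statistic. A fold against a group with 0 counts is a lower bound at 3 counts over that group. With 1 to 3 counts in a group, levels are given in place of a fold. These bounds allow for counting error alone, and reads that carry no molecular identifier may be copies of 1 molecule. No block for the replicate was used, since the letters A, B and C share nothing with the numbers 1 and 2. DESeq2 1.42.0 served as an alternative, as did other scalings, filters and libraries.

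The genes compared, the 50 gene groups and the comparison were chosen with earlier results of these data known. Groups are patterns on the product descriptions and, for some groups, on the names of Pfam protein domains. Named genes had an adjusted p below 0.05, libraries that did not overlap, 10 CPM or more on average in the higher group, no overlapping model and a described product, which 3316 genes met. From these came the 12 largest fitted log2 fold changes each way and up to 4 members of each group by smallest p. Beyond these, the text takes other members of groups of 10 or fewer genes, called or not, though not all of them. Also taken are the 6 described genes highest per kilobase in each group of libraries. To these come the 3 largest fitted changes each way among genes of unknown function. The last are 3 genes at 0 counts and the 3 longest runs of neighbours, each way. Fewer than 10 genes named outside the rule are marked as chosen after their values were seen.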

Additional observations from a re-analysis of the deposited data

How the results depend on the processing

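No gene called both in the fit above and under one of the 13 alternatives changed sign. The alternatives reuse the same counts or parts of them, so such a change was hardly possible and its absence is no support. The counts of genes that rose and fell were 4432 and 3626 under RLE scaling, 4088 and 3951 under upper-quartile scaling, 4383 and 3916 with no low-count filter, 4295 and 3872 with filterByExpr, 4108 and 3378 in a fit of the 5 libraries alone, 4545 and 3698 in DESeq2, and 3825 and 3469 with every library thinned to the smallest total. Leaving out 1 library gave 3329 to 4436 that rose and 2996 to 3923 that fell. Without dark mycelium 1 or 2, 10650 and 10636 genes passed the filter, against 11095. A gene counted only in dark mycelium then has too few libraries to pass, and the dark group is left with 1. Why fewer genes were called was not tested. No paired analysis was possible because protoapothecia A, B and C and dark mycelium 1 and 2 share no replicate number.

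Of 320 named genes tested, some had no value in some of the alternatives. Many were named for a low adjusted p and libraries that did not overlap, so a reversal in them was unlikely. Where there was a value, it kept its direction except in 2 uncalled genes without protoapothecia C. There the striatin gene PCON_03897 turned to -1.16 and the metacaspase gene PCON_13423 to -1.90 on the log2 scale. Leaving out 1 library at a time gave -1.16 to 1.965 for PCON_03897 and -1.90 to 1.07 for PCON_13423. Values lost their call in 58 cases and gained one in 19.

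Some counts of group members moved by more than 1.5 times, in large groups such as the respiratory chain as well as in small ones. Under RLE scaling, DESeq2 and thinning 2 developmental regulators rose. Under thinning 0 conidiation proteins and 0 glycolysis genes rose, and 1 oxylipin oxygenase, 3 cutinase and pectin genes and 1 copper or zinc transporter fell. Under upper-quartile scaling 1 RNA silencing gene rose, and 2 meiosis genes and 1 histone gene fell, and DESeq2 also had 2 meiosis genes that fell. In the fit of 5 libraries 1 polyketide synthase or laccase, 1 copper or zinc transporter and 13 respiratory chain genes fell. The cause was not tested.

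Leaving out 1 library at a time, the members that rose numbered 1 to 2 (developmental regulators), 0 to 3 (conidiation-specific proteins), 8 to 12 (meiosis and recombination), 0 to 1 (polyketide synthases and laccases), 3 to 7 (histones), 5 to 9 (cyclins and cell division kinases), 1 to 2 (RNA silencing), 2 to 7 (zinc cluster transcription factors), 1 to 2 (cytosolic ribosomal proteins), 12 to 20 (mitochondrial ribosomal proteins), 3 to 7 (translation initiation factors), 5 to 11 (respiratory chain), 0 to 1 (glycolysis), 2 to 4 (citrate and glyoxylate cycles), 1 to 2 (glycogen, trehalose and mannitol), 5 to 8 (heat shock proteins and chaperones). Those that fell numbered 0 to 1 (conidiation-specific proteins), 1 to 2 (NADPH oxidase and striatin), 1 to 2 (meiosis and recombination), 0 to 2 (polyketide synthases and laccases), 1 to 2 (oxylipin oxygenases), 1 to 2 (lectins), 3 to 5 (cutinases and pectin enzymes), 3 to 5 (subtilisin-like proteases), 1 to 3 (copper and zinc transporters), 13 to 22 (respiratory chain), 10 to 17 (vegetative incompatibility HET-E), 0 to 1 (metacaspases). Depth limits low genes most in protoapothecia B, where 3 counts are worth 0.645 CPM.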
